A study of Mus musculus with 14 samples.

Results

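CD8+ tumor-infiltrating lymphocytes (TILs) sorted as TIM-3+ were compared with those sorted as DN, to ask which transcripts are gained and which are lost on the step to TIM-3+ cells. The comparison rests on 4 of the 14 libraries of the series, 2 for each population, and on the 9614 of 15319 listed genes that reached a mean of 1 FPKM over those 4 libraries (FPKM: fragments per kilobase of gene and 1000000 fragments). Both populations came from Bcl6-RFP mice, which carry a red fluorescent reporter for the transcription factor Bcl6, and from E.G7 tumors that had grown under the skin for 21 days. E.G7 is a lymphoma line that descends from EL4 and expresses ovalbumin. The labels do not spell out DN, and they do not say whether the 2 libraries of a population came from separate mice or how many mice were pooled. Each p-value therefore measured only the spread between these samples, which may be technical. Another population of the same experiment, Bcl6+ TILs (2 libraries), shared the estimate of that spread. The other libraries hold OT-I cells, which carry a transgenic receptor for ovalbumin and were recovered from tumors of the same line some 8 days after they had been transferred; 4 came from an experiment that overexpressed Prdm1 and 4 from one that overexpressed Bcl6, each with 2 control libraries.

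TIM-3, encoded by Havcr2, is an inhibitory receptor that accumulates on T cells after prolonged stimulation by antigen. In chronic infection and in tumors, CD8+ T cells are known to pass from a self-renewing state kept by the transcription factor TCF-1 (Tcf7) to a differentiated state that is rich in killing proteins and in inhibitory receptors and has little capacity for renewal. Cells of the first kind use receptors of the lymph node such as CCR7 and CXCR5, and cells of the second kind carry perforin, granzymes and inflammatory chemokines.

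The 5 markers of the contrast separated the populations, and the libraries held T cell transcripts throughout. Levels below are CPM, counts per 1000000 of library size after TMM scaling, and changes are log2 fold changes of TIM-3+ over DN cells with the standard error (SE) and Benjamini-Hochberg adjusted p of the edgeR quasi-likelihood test. Havcr2 measured 201 and 175 CPM in the DN libraries and 1294 and 1349.7 in the TIM-3+ libraries, which checks the sort (log2 fold change 2.81, SE 0.17, adjusted p = 3.1e-08). Prf1, which encodes the pore-forming protein perforin (ENSMUSG00000037202, mm10 chromosome 10, 61297833 to 61304680, plus strand), measured 1180.3 and 1104 against 6394 and 6416 CPM (log2 fold change 2.49, SE 0.05, adjusted p = 1.44e-13). Ccl3, an inflammatory chemokine (ENSMUSG00000000982, mm10 chromosome 11, 83647844 to 83649355, minus strand), measured 186 and 201 against 2224 and 2267 CPM (log2 fold change 3.54, SE 0.06, adjusted p = 1.38e-13). In all 3 genes both TIM-3+ libraries lay far above both DN libraries. Tcf7 fell from 548 and 548 to 35.8 and 48.6 CPM (log2 fold change -3.699, SE 0.11), and Ccr7, the receptor that leads T cells into lymph nodes (ENSMUSG00000037944, mm10 chromosome 11, 99144196 to 99155077, minus strand), from 1188 and 1179 to 136 and 147 CPM (log2 fold change -3.06, SE 0.06, adjusted p = 1.38e-13). All 5 transcripts were present in every library.

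Of 10 T cell identity genes tested, 7 were higher in TIM-3+ cells and none was lower, with Cd8a at 1255 and 1257 against 2091 and 2079 CPM and Cd3e at 1344 and 1414 against 2212 and 2113 CPM. Total counts were 20529410 and 20871012 for DN libraries and 22097550 and 22304113 for TIM-3+ libraries. The TIM-3+ libraries were more concentrated: 13773 and 13779 genes had at least 1 count against 14623 and 14646 in DN, and the 10 most abundant genes took 8.28 and 8.52% of counts against 6.65 and 6.68%. Scaling to total counts in place of TMM moved the median log2 fold change of all tested genes from -0.01 to -0.17, so changes are given relative to the TMM scale. Transcripts of other cell types went in both directions, given here as sums over all listed markers in the file. Macrophage markers summed to 174 and 185 CPM in DN and 79.7 and 62.4 CPM in TIM-3+ libraries, B cell markers to 17.3 and 14.4 against 3.84 and 2.18, and hemoglobin and other erythroid markers to 77.5 and 73.9 against 20.8 and 27.4. Neutrophil markers summed to 20.2 and 12.3 CPM in DN and 128 and 112 CPM in TIM-3+ libraries, mostly from 1 gene, Ltf, described below. Of 8 macrophage markers tested, 4 were lower and 0 higher in TIM-3+ cells. Lyz2, which other myeloid cells also express, measured 62.4 and 61.4 against 26.3 and 16.04 CPM. Among markers under the mean of 1 FPKM, which were not tested, Csf1r had 135 and 147 counts in DN and 16 and 13 in TIM-3+ libraries. Mrc1 had 52 and 74 against 0 and 5 counts. Itgam went the other way, with 60 and 44 against 121 and 148 counts. In bulk RNA, fewer cells of a type and less RNA per cell cannot be told apart, and the part of these transcripts in the losses below was not tested except where a value is given.

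At an adjusted p of 0.05, 2666 genes (27.7% of those tested) differed between the populations, 1419 higher (14.8%) and 1247 lower (13%) in TIM-3+ cells. The gains were more numerous and smaller, with a median log2 fold change of 0.63 against -0.85 for the losses. Among genes that changed at least 2-fold, 357 were higher (3.71%) and 540 lower (5.62%). At 4-fold the counts were 50 and 254, and at 8-fold 6 and 109. The split between gains and losses depended on scaling, with 873 higher and 2092 lower under total counts, whereas the 897 changes of at least 2-fold kept their direction under every alternative tried, of which a minimum of 5 FPKM tested 413 of them. No called gene rose from under 1 FPKM in DN cells to at least 5 FPKM in TIM-3+ cells, while 35 (0.364%) fell from at least 5 FPKM to under 1 FPKM. Without DN replicate 1 the count of changed genes was 1663 and without DN replicate 2 it was 1684. Where at most 3 members of a list went against its majority, some of those calls were lost when 1 library was left out, and they are counted as they stand with all libraries.

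**Figure D1:**
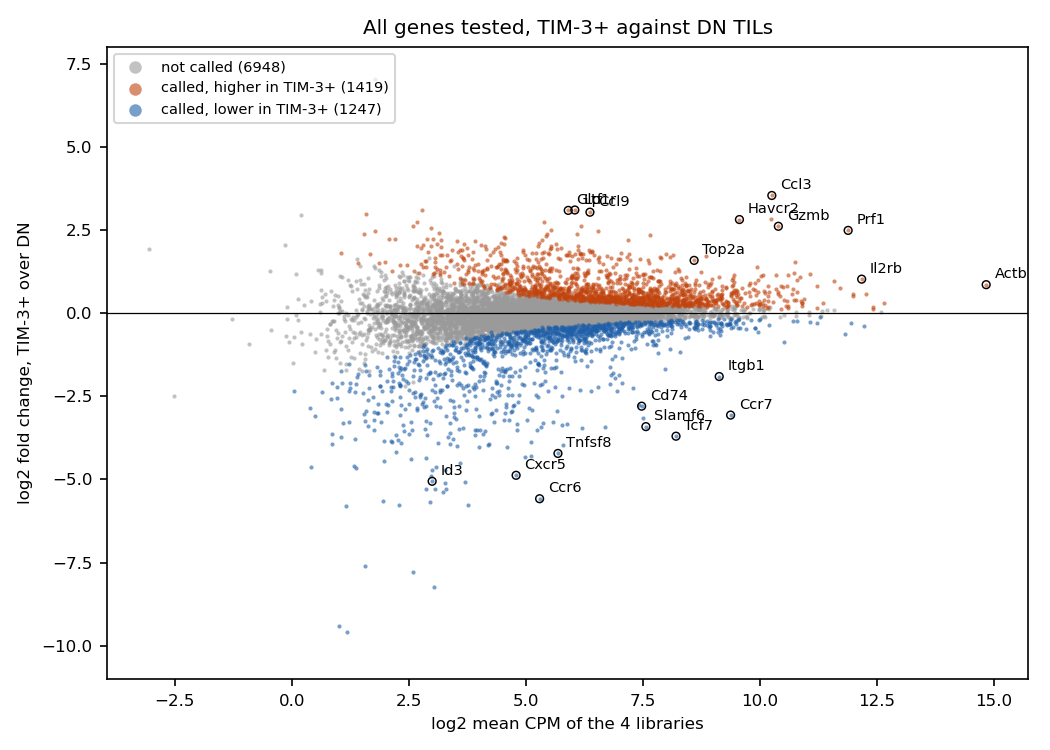
Each point is 1 of the 9614 genes tested, with its mean level over the 4 libraries (log2 CPM, x axis) and its log2 fold change of TIM-3+ over DN cells (y axis); orange and blue mark the 1419 genes higher and the 1247 genes lower in TIM-3+ cells at an adjusted p of 0.05, and the circled genes are named in the text. The losses reach further from 0 than the gains, with 109 genes at least 8-fold lower and 6 at least 8-fold higher.

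Genes of the killing machinery were mostly higher. Cytotoxic T cells kill by releasing granules that hold perforin, which opens the membrane of the target, and granzymes, proteases that then enter it. Of 19 granule protein genes tested, 13 were higher and 2 lower in TIM-3+ cells, with a median log2 fold change of 0.70 against -0.01 over all genes tested. Gzmb, the main granzyme of effector cells, measured 377 and 378 CPM in DN and 2348 and 2268 CPM in TIM-3+ libraries (log2 fold change 2.61, SE 0.13, adjusted p = 4.11e-09). The granzymes encoded beside it rose from lower levels. Gzmf went from 21.6 and 18.8 to 129.9 and 120.4 CPM (log2 fold change 2.63, SE 0.19), Gzmd from 14.8 and 13.6 to 79.1 and 67.5 CPM, and Gzme from 15.4 and 13.4 to 66.5 and 66.1 CPM. Gzmc measured 9.796 and 12.04 against 71.2 and 73.6 CPM (log2 fold change 2.73, SE 0.39, adjusted p = 0.000123). These genes are close in sequence, and reads shared between them may be assigned to either. Other granule genes rose by less: Nkg7, a granule membrane protein, measured 2121 and 2061 against 4008 and 4101 CPM (log2 fold change 0.96, SE 0.05), and Serpinb9, the inhibitor that protects the killer cell from its own granzyme B, had a log2 fold change of 0.83 (SE 0.05).

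The gain did not extend to every granule gene. Lamp1, the lysosomal membrane protein that reaches the surface when granules are released, was lower in TIM-3+ cells, at 162 and 167 against 61.4 and 65.7 CPM (log2 fold change -1.37, SE 0.14, adjusted p = 5.99e-06). Gzmm was also lower, at 7.54 and 6.57 against 1.94 and 3.15 CPM (adjusted p = 0.0296), but did not pass without DN replicate 1 (adjusted p = 0.168), DN replicate 2 (0.104) or TIM-3+ replicate 1 (0.163). Of 19 genes of granule loading and exocytosis, 10 were higher and 2 lower. Ctsc, the peptidase that activates granzymes, measured 357 and 357 against 771 and 732 CPM (log2 fold change 1.07, SE 0.06). Lyst and Rab27a, which act in the sorting and docking of granules, had log2 fold changes of 1.26 and 0.78. The cathepsins went both ways, since Ctsd and Ctsb were higher (log2 fold changes 1.01 and 0.71) and Ctsl and Ctsw were lower (-2.18 and -0.46; for Ctsl -2.78 without TIM-3+ replicate 2).

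Secreted signals changed in both directions. The 4 chemokines that rose were Ccl3, Ccl4, Ccl5 and Ccl9, all inflammatory attractants of myeloid and T cells. Ccl4 measured 299 and 296 CPM in DN and 2066 and 2176 CPM in TIM-3+ libraries (log2 fold change 2.83, SE 0.07, adjusted p = 2.95e-12), and Ccl9 18.6 and 17.3 against 145 and 149 CPM (log2 fold change 3.03, SE 0.19, adjusted p = 3.84e-08). The 3 that fell were Xcl1, the attractant of cross-presenting dendritic cells, from 191 and 189 to 51.3 and 46.8 CPM (log2 fold change -1.95, SE 0.09, adjusted p = 2.78e-09), Cxcl10 (log2 fold change -2.298, SE 0.27) and Ccl22 (-2.98, SE 0.58; -2.37 without TIM-3+ replicate 1 and -4.04 without TIM-3+ replicate 2). Xcr1, the receptor for Xcl1 and a dendritic cell marker, was higher in TIM-3+ libraries, at 25.2 and 19.1 against 45.6 and 43.1 CPM, and did not pass without DN replicate 2 (adjusted p = 0.0902), while the 9 dendritic cell markers listed in the file, 4 of which were tested, summed to 92.2 and 82.4 CPM in DN and 69.3 and 65.8 CPM in TIM-3+ libraries.

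Among 12 cytokines and other secreted factors tested, 4 rose and 4 fell. Ifng, the macrophage-activating cytokine interferon gamma, measured 219.8 and 209.7 CPM in DN and 709 and 703 CPM in TIM-3+ libraries (log2 fold change 1.72, SE 0.07, adjusted p = 8.87e-10). Areg, a ligand of the epidermal growth factor receptor, measured 27.9 and 31.4 against 101 and 94.2 CPM (log2 fold change 1.71, SE 0.16, adjusted p = 2.15e-06), and Spp1, which encodes osteopontin, had a log2 fold change of 1.16 (SE 0.05). Tnf rose by less (log2 fold change 0.63, adjusted p = 0.0114) and did not pass without either DN library (adjusted p = 0.0696 without replicate 1 and 0.0897 without replicate 2) or without TIM-3+ replicate 2 (0.132). Il2, the T cell growth factor, went the other way from a low level, at 2.402 and 2.69 CPM in DN and 0.15 and 0.048 CPM in TIM-3+ libraries (log2 fold change -4.63, SE 1.11, adjusted p = 0.00636; -5.55 without TIM-3+ replicate 1). Interferon gamma and IL-2 transcripts, both products of activated T cells, thus moved in opposite directions between the same libraries.

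**Figure D2:**
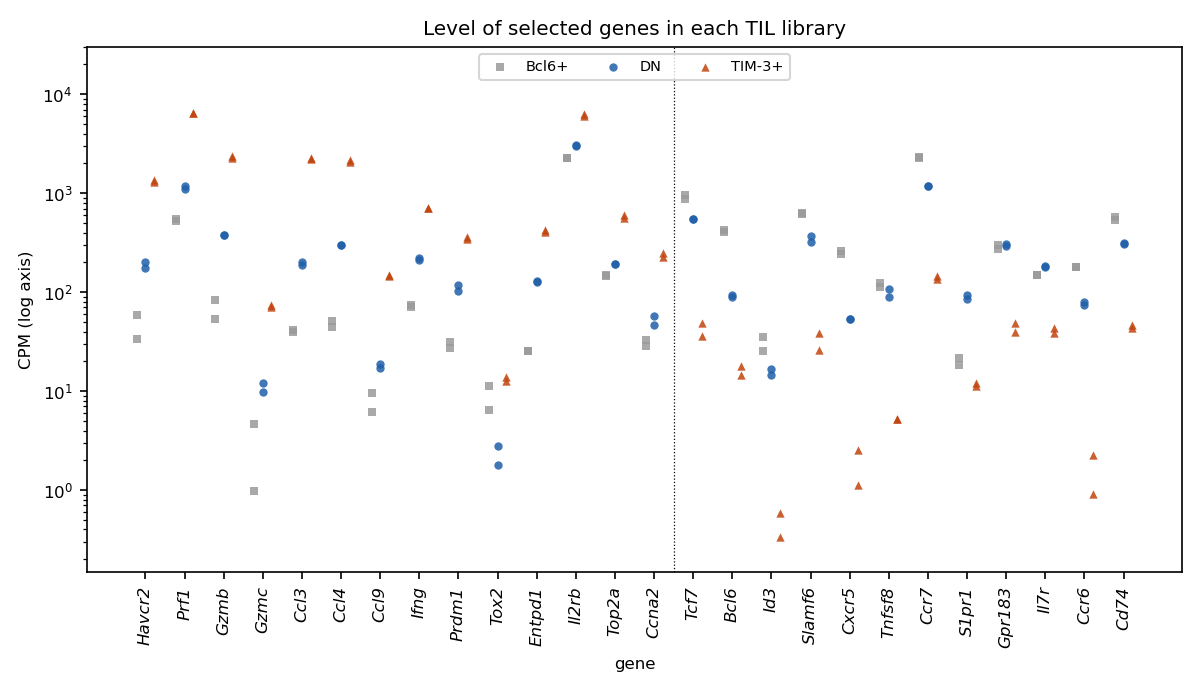
Level in CPM (log axis) of 26 genes in each of the 6 TIL libraries, with squares for Bcl6+, circles for DN and triangles for TIM-3+ cells; genes left of the dotted line were higher and those right of it lower in TIM-3+ than in DN cells. The genes shown were picked among called genes. In all 2666 called genes both TIM-3+ libraries lie on the same side of both DN libraries, so the picture adds no test of this. The same holds for 64.8% of all genes tested.

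Inhibitory receptors, which dampen signalling from the T cell receptor, were higher in 10 of 20 cases tested and lower in 2, while 8 did not pass the test (median log2 fold change 0.42). Lag3 measured 1153 and 1201 against 2366 and 2354 CPM (log2 fold change 1.004, SE 0.04, adjusted p = 1.73e-09), Tigit 961 and 1056 against 1786 and 1799.8 CPM (log2 fold change 0.83, SE 0.05, adjusted p = 3.92e-08), and Cd244a 54.2 and 59.1 against 135 and 139.9 CPM (log2 fold change 1.28, SE 0.14, adjusted p = 1.21e-05). Entpd1, the surface enzyme CD39 that degrades extracellular ATP and marks terminally exhausted cells, measured 129 and 126 against 421 and 408 CPM (log2 fold change 1.699, SE 0.08, adjusted p = 4e-09). Btla, an inhibitory receptor of less differentiated T cells, fell from 51.9 and 49.4 to 12.1 and 10.6 CPM (log2 fold change -2.15, SE 0.17, adjusted p = 4.26e-07). Ctla4 was abundant in both populations, at 599 and 581 against 559 and 579 CPM, and did not pass the test (log2 fold change -0.05, SE 0.06, adjusted p = 0.585); it passed as lower under total counts (adjusted p = 0.0187). The receptors of this group therefore did not all move one way.

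The enzymes and receptors of extracellular purines showed the same unevenness. CD39 and CD73 act in sequence to turn ATP into adenosine. While Entpd1 rose, Nt5e, which encodes CD73, fell from 52.7 and 40.2 to 3.84 and 9.84 CPM (log2 fold change -2.76, SE 0.31, adjusted p = 1.23e-05; -3.59 without TIM-3+ replicate 2). Cd38, an NAD-degrading enzyme, was higher, at 107 and 102 against 201 and 198 CPM, and P2rx4, an ATP-gated channel, was lower, at 22.1 and 19.6 against 4.81 and 3.97 CPM. Of the 10 genes of this list tested, 2 were higher and 5 lower.

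Transcription factors kept high in stem-like and memory cells were mostly lower. Of 23 factors of stem-like and memory cells, 14 were lower and 4 higher (median log2 fold change -0.91). Id3, an inhibitor of E proteins in memory precursors, fell from 16.6 and 14.4 to 0.58 and 0.34 CPM (log2 fold change -5.05, SE 0.38, adjusted p = 2.99e-07), while its paralog Id2, which acts in effector cells, rose from 671 and 646 to 1398 and 1442 CPM (log2 fold change 1.11, SE 0.06, adjusted p = 5.75e-09). Pou2af1, a coactivator best known from B cells, fell from 47.4 and 42.7 to 4.71 and 5.09 CPM (log2 fold change -3.200, SE 0.19, adjusted p = 3.23e-08). Bach2, a repressor that restrains effector genes, fell from 92.8 and 74.4 to 24.9 and 23.9 CPM (log2 fold change -1.78, SE 0.15, adjusted p = 8.43e-07). Lef1, the relative of TCF-1, and Myb, a factor of self-renewing exhausted cells, had log2 fold changes of -1.65 (SE 0.16) and -1.64 (SE 0.17). Etv5 ran against the list, at 28.7 and 17.9 against 48.8 and 57.2 CPM (log2 fold change 1.19, SE 0.22, adjusted p = 0.00106).

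Exhaustion factors rose in number but mostly by less than 2-fold, with 9 of 14 higher and 1 lower (median log2 fold change 0.36). Under total counts 6 were higher and 1 lower (median 0.21), and on log2(TPM + 1) 5 were higher and 1 lower (median 0.18). Tox, the factor that installs the exhausted state, was abundant in both populations, at 756 and 802 against 1199 and 1198 CPM (log2 fold change 0.62, SE 0.05, adjusted p = 6.72e-07), and Nr4a2, a nuclear receptor induced by antigen, measured 1079 and 1034 against 1814 and 1834 CPM (log2 fold change 0.79, SE 0.05, adjusted p = 2.26e-08). Tox2 rose further, from 2.78 and 1.81 to 14.04 and 12.8 CPM (log2 fold change 2.55, SE 0.41, adjusted p = 0.00035). Ikzf2, which encodes Helios, was the one lower, at 219.6 and 220.1 against 140.2 and 133 CPM. Of 17 factors of effector cells, 6 were higher and 3 lower, beside 14.8% higher and 13% lower over all genes tested. Under total counts 5 were higher and 3 lower, and on log2(TPM + 1) 4 were higher and 4 lower. Prdm1, which encodes Blimp-1, rose from 102 and 119 to 358 and 348 CPM (log2 fold change 1.68, SE 0.10, adjusted p = 4.19e-08). Runx2 rose from 207 and 228 to 419 and 443 CPM, and Rora fell from 167 and 171 to 60.7 and 76.99 CPM (log2 fold change -1.296, SE 0.11, adjusted p = 7.25e-07).

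Receptors that guide T cells through lymphoid tissue were mostly lost. Of 14 homing and egress genes tested, 11 were lower and 1 higher, with a median log2 fold change of -2.80, the lowest of the 45 lists shown in the plot of gene lists. Cxcr5, the receptor for the B cell follicle (ENSMUSG00000047880, mm10 chromosome 9, 44511787 to 44561877, minus strand), fell from 53.3 and 53.8 to 1.12 and 2.52 CPM (log2 fold change -4.87, SE 0.22, adjusted p = 1.73e-09; -5.57 without TIM-3+ replicate 2). S1pr1, the sphingosine phosphate receptor of lymph node egress, fell from 86.04 and 93.1 to 11.4 and 11.97 CPM (log2 fold change -2.94, SE 0.18, adjusted p = 3.43e-08). Gpr183, a receptor for oxysterols, fell from 305 and 290.1 to 39.5 and 48.5 CPM (log2 fold change -2.76, SE 0.11, adjusted p = 5.67e-10). Klf2, a factor that drives S1pr1, was low in both populations, at 9.65 and 11.8 against 6.61 and 4.94 CPM, and did not pass the test (adjusted p = 0.0871), but passed as lower under total counts (adjusted p = 0.043). S1pr1 was also lower in Bcl6+ libraries than in DN libraries, at 18.5 and 21.7 CPM, a difference described here without a test.

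Chemokine receptors of inflamed tissue went in both directions. Ccr6, a receptor of mucosal and inflamed tissue (ENSMUSG00000040899, mm10 chromosome 17, 8236043 to 8257141, plus strand), had the largest fold loss among the genes that reached a mean of 5 FPKM in DN cells, from 79.4 and 74.2 CPM in DN to 0.92 and 2.28 CPM in TIM-3+ libraries (log2 fold change -5.58, SE 0.24, adjusted p = 1.23e-09; -6.37 without TIM-3+ replicate 2). Cxcr3, the receptor for interferon-induced chemokines, fell from 209 and 205 to 43.2 and 37.9 CPM (log2 fold change -2.35, SE 0.11, adjusted p = 2.1e-09). Cxcr6, a receptor of tissue-resident and tumor-infiltrating T cells, rose from 1205 and 1153 to 2609.99 and 2425 CPM (log2 fold change 1.09, SE 0.05, adjusted p = 3.12e-09), and Cx3cr1, the fractalkine receptor, from 188 and 173 to 427 and 442 CPM (log2 fold change 1.27, SE 0.08, adjusted p = 5.8e-08). Ccr2 and Ccr8 did not pass the test (adjusted p = 0.161 and 0.765). Of 9 such receptors tested, 4 were higher and 2 lower.

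Surface and signal genes of stem-like cells fell as well, with 12 of 16 lower and 2 higher (median log2 fold change -1.47). Slamf6, a homotypic receptor, fell from 322 and 369 to 26.1 and 38.9 CPM (log2 fold change -3.41, SE 0.14, adjusted p = 8.87e-10). Tnfsf8, which encodes the CD30 ligand, fell from 107 and 88.6 to 5.25 and 5.23 CPM (log2 fold change -4.22, SE 0.16, adjusted p = 5.54e-10), and Emb, which encodes embigin, from 326 and 323 to 40.6 and 32.9 CPM (log2 fold change -3.14, SE 0.10, adjusted p = 5.81e-11). Within the costimulatory and TNF families, 10 of 21 were lower and 7 higher. Tnfsf11, which encodes RANKL, fell from 35.9 and 47.6 to 3.84 and 7.85 CPM (log2 fold change -2.84, SE 0.30, adjusted p = 6.88e-06; -3.44 without TIM-3+ replicate 2). Tnfrsf9, which encodes 4-1BB, a receptor induced by antigen, rose from 949.7 and 956 to 2063 and 2189 CPM (log2 fold change 1.16, SE 0.05, adjusted p = 8.87e-10).

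Receptors for growth and survival cytokines shifted between subunits. Il7r, the receptor for the survival factor IL-7, fell from 178 and 183 to 43.6 and 38.2 CPM (log2 fold change -2.14, SE 0.11, adjusted p = 5.26e-09), and Il9r from 29.2 and 26.3 to 1.36 and 3.49 CPM (log2 fold change -3.52, SE 0.32, adjusted p = 1.72e-06; -4.35 without TIM-3+ replicate 2). Il2rb, the subunit shared by the receptors for IL-2 and IL-15, was among the most abundant transcripts and rose from 2982 and 3103 to 6052 and 6305 CPM (log2 fold change 1.02, SE 0.04, adjusted p = 2.33e-10). Of the 8 receptors that use the common gamma chain, 4 were higher (2 without DN replicate 1) and 3 lower. Among 18 other cytokine receptors 5 rose and 5 fell. Under total counts 5 rose and 7 fell, and on log2(TPM + 1) 3 rose and 7 fell. Il12rb1 rose (log2 fold change 1.195, SE 0.18) and Ifngr2, a subunit of the interferon gamma receptor, fell from 11.2 and 11.4 to 0.34 and 2.66 CPM (log2 fold change -2.91, SE 0.61, adjusted p = 0.00248; -2.08 without TIM-3+ replicate 1 and -5.03 without TIM-3+ replicate 2). Of 17 SOCS and STAT5 feedback genes tested, 4 were higher, 4 lower and 9 not called. Under total counts 3 were higher and 6 lower. Socs3 and Pim2 fell by close to 2-fold (log2 fold changes -0.98 and -1.08). Over all genes tested, 14.8% were higher and 13% lower.

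**Figure D3:**
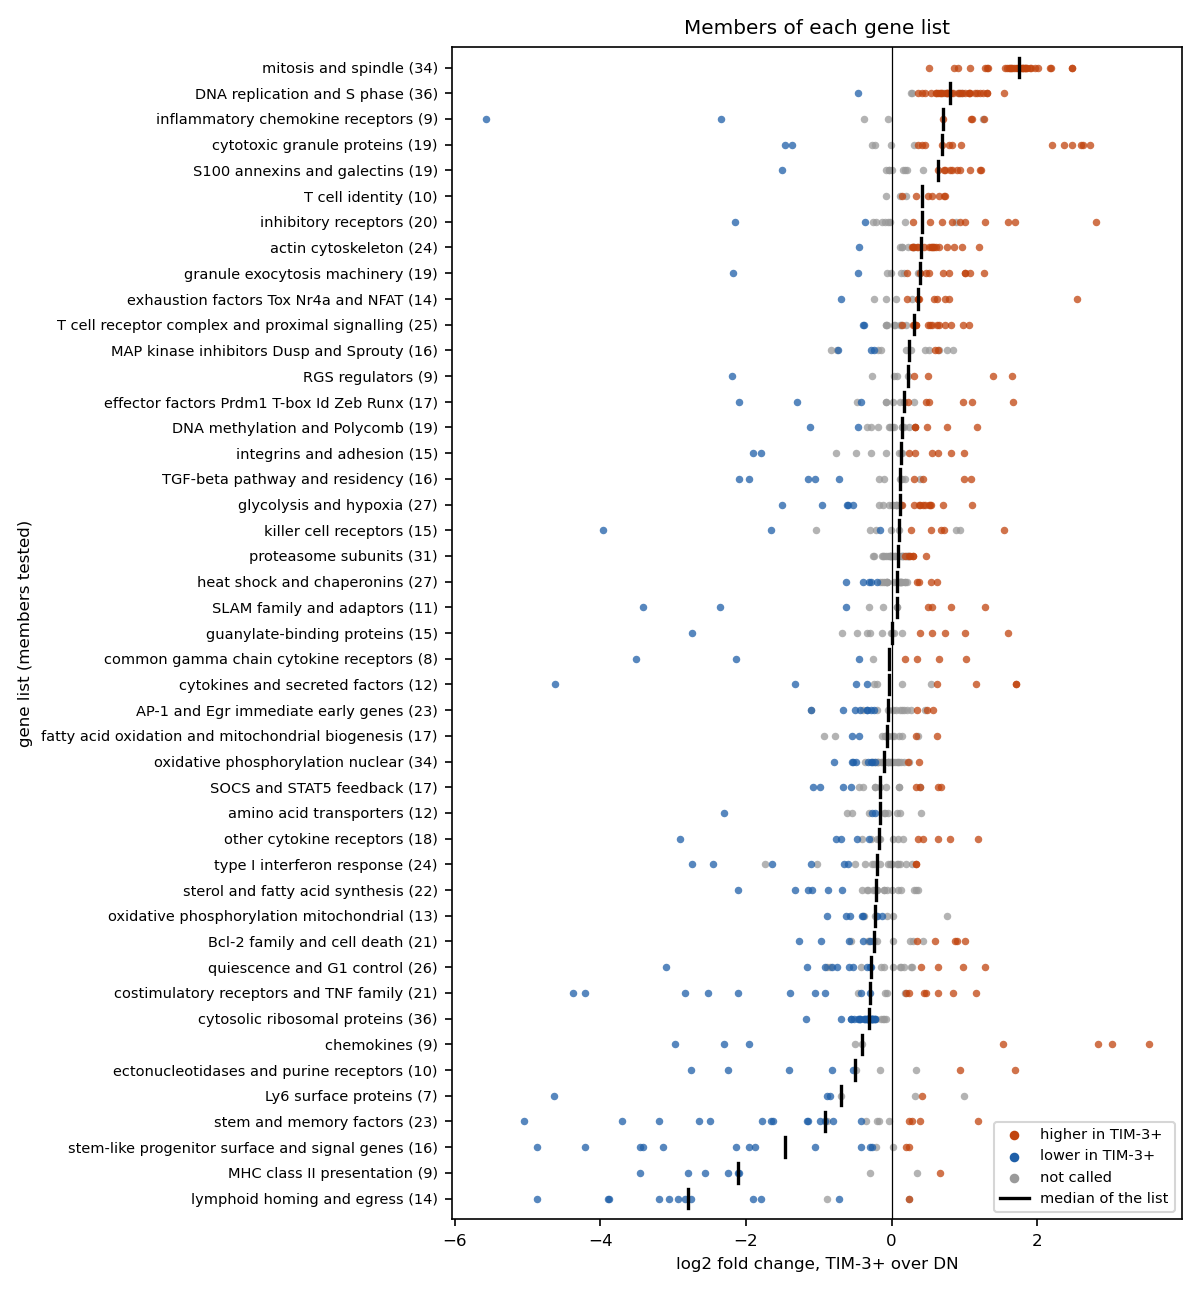
Log2 fold change of TIM-3+ over DN cells (x axis) for each tested member of 45 gene lists (y axis, with the number of members tested), in orange where higher, blue where lower and gray where not called at an adjusted p of 0.05; the black bar is the median of the list. Mitosis and DNA replication lie furthest to the right, while homing and egress, MHC class II presentation and the stem-like lists lie furthest to the left.

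Transcripts of cell division were higher throughout. All 34 mitosis and spindle genes tested were higher in TIM-3+ cells, 31 of them at least 2-fold, with a median log2 fold change of 1.75 against -0.01 over all genes tested. Top2a, the topoisomerase that untangles chromosomes, measured 192 and 193 CPM in DN and 562 and 596 CPM in TIM-3+ libraries (log2 fold change 1.59, SE 0.07, adjusted p = 2.05e-09). Ube2c, which tags cyclins for destruction at the end of mitosis, measured 26.3 and 30.4 against 151 and 164 CPM (log2 fold change 2.47, SE 0.14, adjusted p = 2.04e-08). Ccna2, the cyclin of S and G2 phase, measured 57.2 and 46.1 against 247 and 226 CPM (log2 fold change 2.197, SE 0.13, adjusted p = 3.02e-08). DN libraries also held these transcripts. In bulk RNA, a larger share of dividing cells and more of these transcripts per cell cannot be told apart. Genes of DNA replication rose by less: 30 of 36 were higher and 1 lower, with a median log2 fold change of 0.80. Rrm2, the regulated subunit of ribonucleotide reductase, measured 165 and 181 against 430.4 and 432 CPM (log2 fold change 1.32, SE 0.09, adjusted p = 7.37e-08), and the helicase subunit Mcm4 225 and 188 against 443 and 422 CPM (log2 fold change 1.07, SE 0.09, adjusted p = 7.25e-07). Rfc3, a subunit of the clamp loader, was the one lower, at 109 and 96.4 against 80.5 and 68.9 CPM, and did not pass without DN replicate 1 (adjusted p = 0.141) or TIM-3+ replicate 2 (0.108). Uhrf1 and Dnmt1, which copy DNA methylation at the replication fork, also rose (log2 fold changes 1.17 and 0.76).

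Regulators of G1 did not follow as a block, with 4 of 26 higher and 10 lower (median log2 fold change -0.28). Over all genes tested, 14.8% were higher and 13% lower. Ccnd1, cyclin D1, fell from 28.9 and 28.4 to 3.69 and 2.96 CPM (log2 fold change -3.11, SE 0.25, adjusted p = 4.88e-07), while Ccnd3, the D cyclin that is more abundant here, had a log2 fold change of 0.404. Cdkn1a, the cell cycle inhibitor p21, rose from 61.7 and 48.8 to 130.1 and 139 CPM (log2 fold change 1.28, SE 0.14, adjusted p = 9.27e-06), and Myc fell from 255 and 274 to 168 and 165 CPM (log2 fold change -0.67, SE 0.08, adjusted p = 1.76e-05). Of 3 markers of lymphoma cells and thymocytes tested, which also divide, 2 were lower: Dntt measured 14.3 and 15.8 against 2.14 and 3.73 CPM and Cd4 11.3 and 9.82 against 2.82 and 2.42 CPM. The other, Cd1d1, did not pass (log2 fold change -0.07). The 6 markers of this list found in the file summed to 83.5 and 72.6 CPM in DN and 36.0 and 41.9 CPM in TIM-3+ libraries, and the part of such cells in the transcripts of division was not tested.

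**Figure D4:**
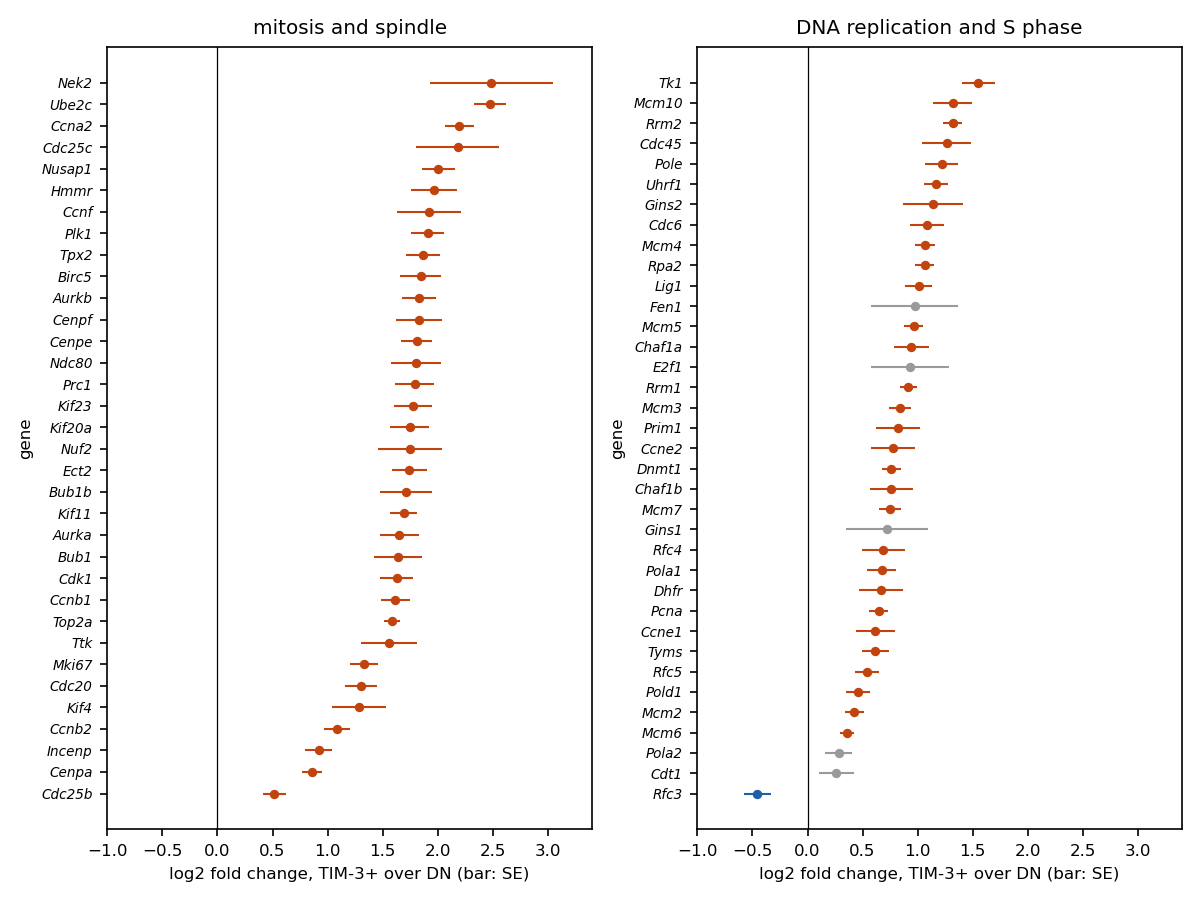
Log2 fold change of TIM-3+ over DN cells with its SE for each of 34 mitosis and spindle genes (left) and 36 DNA replication genes (right), in orange where higher, blue where lower and gray where not called. All mitosis genes lie to the right of 0, around a median of 1.75, and the replication genes lie closer to 0, around a median of 0.80.

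Because the mitosis genes moved together, their promoters were read in RefSeq's mouse annotation (GRCm38.p6). Genes of mitosis are known to share a cell cycle homology element, bound by the DREAM and MuvB complexes, often placed close to CCAAT boxes that bind NF-Y. The letters searched for that element were TTTGAA, read as TTCAAA on the opposite strand. For the NF-Y box they were CCAAT, which the opposite strand shows as ATTGG. The search covered the 250 bases before and 50 after each annotated start; the elements can share a base where they meet. The table held 28 of the 34 mitosis genes. The 150 bases before the start are shown for 4 of the 5 mitosis genes of smallest p, with these letters in capitals, and each stretch is given 5′ to 3′ on the strand of its gene.
Top2a, chr11:99024190-99024339, minus strand: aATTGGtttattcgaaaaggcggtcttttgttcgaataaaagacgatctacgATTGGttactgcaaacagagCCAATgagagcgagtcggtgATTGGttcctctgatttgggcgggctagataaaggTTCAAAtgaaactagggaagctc
Ube2c, chr2:164769779-164769928, plus strand: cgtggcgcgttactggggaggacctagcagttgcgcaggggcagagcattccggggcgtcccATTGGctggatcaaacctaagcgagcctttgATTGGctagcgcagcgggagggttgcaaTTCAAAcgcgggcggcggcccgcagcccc
Kif11, chr19:37376232-37376381, plus strand: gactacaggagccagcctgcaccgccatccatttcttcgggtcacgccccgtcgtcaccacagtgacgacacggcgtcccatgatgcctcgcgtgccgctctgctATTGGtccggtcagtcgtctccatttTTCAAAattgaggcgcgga
Nusap1, chr2:119618148-119618297, plus strand: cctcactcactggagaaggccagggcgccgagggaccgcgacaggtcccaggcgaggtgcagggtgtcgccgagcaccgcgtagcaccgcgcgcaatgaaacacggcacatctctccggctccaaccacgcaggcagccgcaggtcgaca

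In the first 3 of these promoters the TTCAAA letters lie close to the start and downstream of at least 1 CCAAT box, while the stretch of Nusap1 holds neither motif. Nusap1 had a log2 fold change of 2.01 and Kif11 of 1.69. Over the whole window, TTTGAA or its reverse was found at 20 of 28 mitosis genes (71.4%), against 14.5% of the 7813 tested genes in the table and 20.2% of all 27025 genes in it. CCAAT or its reverse was found at 24 of 28 (85.7%), against 43.7% of tested genes and 41.1% of all genes. Replication genes had TTTGAA at 13.3% of 30 promoters. The E2F-like letters TTTGGCGC or TTTCCCGC, on either strand, stood in 10 of these 30 (33.3%), in none of the 28 mitosis promoters and in 3.81% of tested and 1.8% of all genes. A match describes the letters in these windows and not the binding of a factor.

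Most genes of MHC class II presentation were lower in TIM-3+ cells, and interferon-induced genes went both ways. Of 9 genes of MHC class II presentation tested, 6 were lower and 1 higher (median log2 fold change -2.11). Cd74, the invariant chain, measured 317 and 303 CPM in DN and 46.2 and 43.2 CPM in TIM-3+ libraries (log2 fold change -2.796, SE 0.08, adjusted p = 2.85e-11), Cd83, a regulator of class II turnover, 136 and 135 against 11.6 and 13.1 CPM (log2 fold change -3.45, SE 0.11, adjusted p = 5.81e-11), and H2-Ab1, a class II chain, 52.9 and 63.6 against 13.6 and 13.6 CPM (log2 fold change -2.097, SE 0.17, adjusted p = 6.09e-07). Class II genes mark B cells, macrophages and dendritic cells. The 10 genes of this list summed to 689 and 694 CPM in DN, 214 and 234 CPM in TIM-3+ and 1179 and 1120 CPM in Bcl6+ libraries. The sums of the markers of those cells, given above, were lower in TIM-3+ libraries as well, and their part in this loss was not tested. Of 24 genes of the type I interferon response, 6 were lower, 2 higher and 16 not called, where 27.7% of all genes tested were called. Under total counts, 8 of the 24 were lower and 0 higher. Among the lower ones was Ifit3, an inhibitor of viral RNA translation, from 32.6 and 33.1 to 5.83 and 6.15 CPM (log2 fold change -2.45, SE 0.27, adjusted p = 1.29e-05). Some guanylate-binding proteins, which are induced by interferon gamma, were higher, with Gbp6 at 28.8 and 28.9 against 55.7 and 61.004 CPM (log2 fold change 1.02, SE 0.20, adjusted p = 0.00178) and 5 of 15 of that family higher and 1 lower; these genes have close paralogs.

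The 35 genes lost to near silence were led by chemokine receptors. Per length, the most abundant of them in DN cells were Ccr6, at 32.4 and 30.5 FPKM in DN and 0.39 and 0.97 FPKM in TIM-3+ libraries, and Cxcr5, at 15.2 and 15.4 against 0.33 and 0.75 FPKM. Next came Kcne4, a subunit of potassium channels, at 10.4 and 12.1 against 0.34 and 1.55 FPKM. The 10 of highest FPKM also included Sh3bp5, Gucy1a1 (a subunit of the nitric oxide receptor), Dhrs3 (a retinal reductase), Tespa1 (a T cell receptor signalling protein), Sostdc1 (a secreted antagonist of BMP and Wnt signals) and the transcript A930003A15Rik. Sostdc1 fell from 13.9 and 18.6 to 0.83 and 0 CPM (log2 fold change -5.28, SE 0.68, adjusted p = 5.01e-05). Near 0 the 2 TIM-3+ libraries of a gene could differ several-fold, so the fold of a loss depended on the library kept: the log2 fold change of Ccr6 was -6.37 without TIM-3+ replicate 2, that of Cxcr5 -5.57 without TIM-3+ replicate 2, and that of Kcne4 -2.91 without TIM-3+ replicate 1 and -5.08 without TIM-3+ replicate 2. That of Sostdc1, which was at 0 in TIM-3+ replicate 2, was -11.43 without TIM-3+ replicate 1 and -4.29 without TIM-3+ replicate 2; the first value was fitted against that 0 and is no bound.

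Part of this group carries the markers of another cell type. Siglech, Spib, Ly6d, Cox6a2 and Pld4, which are known from plasmacytoid dendritic cells, were among the 35. Siglech measured 21.1 and 18.1 CPM in DN, 0.049 and 2.52 CPM in TIM-3+ and 2.998 and 3.86 CPM in Bcl6+ libraries, and Spib 15.4 and 15.05, 0 and 1.02 and 4.85 and 4.697 CPM. Cox6a2 differed less between DN and Bcl6+ libraries, at 4.85 and 4.86 against 3.47 and 3.77 CPM, with 0.097 and 0.29 CPM in TIM-3+ libraries. A list of 17 such markers was drawn up after these values were seen and is therefore only described: 10 of the 15 tested were lower and 3 higher in TIM-3+ cells, with a median log2 fold change of -2.36. The summed level of the 16 found in the file was higher in TIM-3+ libraries, at 1660 and 1652 CPM against 1206 and 1226 CPM in DN. Most of that sum was Irf8, at 605 and 582 against 914 and 872 CPM, and Runx2, both of which T cells also express. Ccr9, which stands in that list and in the homing list, measured 22.1 and 18.8 against 1.85 and 2.62 CPM. The log2 fold changes of Siglech and Spib were -3.93 and -4.88. For Siglech it was -2.96 without TIM-3+ replicate 1 and -8.49 without TIM-3+ replicate 2, and for Spib -3.89 without TIM-3+ replicate 1 and -11.33 without TIM-3+ replicate 2, where the 1 library left is at or near 0 and a fitted value is no bound. The part of such cells in the loss of these genes was not tested. Klk1 and Krt17 had no counts in either TIM-3+ library and were at least 62.7-fold and at least 55.0-fold lower than in DN cells, with 3 counts over the group as the floor; these limits cover counting error only, and both genes were picked out after their values were seen.

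**Figure D5:**
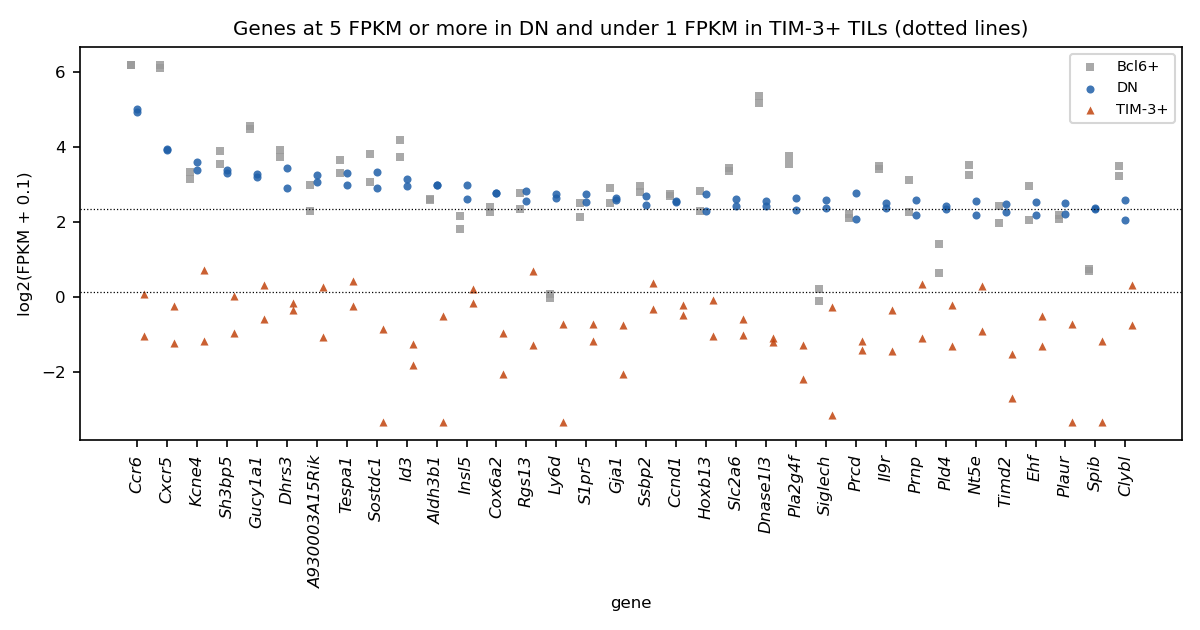
Level, as log2(FPKM + 0.1), of 34 of the 35 genes that fell from at least 5 FPKM in DN to under 1 FPKM in TIM-3+ cells (dotted lines), in each of the 6 TIL libraries; the thresholds apply to the mean of 2 libraries. Most of those shown were also expressed in Bcl6+ libraries. Siglech, Ly6d, Pld4 and Spib were among those higher in DN than in both other populations. Aldh3b1, Cox6a2 and Insl5 were also highest in DN, by a smaller margin over Bcl6+ libraries.

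Other genes with large changes came from varied pathways. Ltf, which encodes lactotransferrin, an iron-binding protein of neutrophil granules, was the 1 neutrophil marker tested and measured 17.4 and 10.1 CPM in DN and 125 and 112 CPM in TIM-3+ libraries (log2 fold change 3.101, SE 0.26, adjusted p = 8.07e-07). The abundant neutrophil gene S100a8 had 7 and 1 counts in DN and 17 and 0 in TIM-3+ libraries. Glp1r, the receptor for the incretin hormone GLP-1, measured 10.7 and 14.4 against 103 and 112 CPM (log2 fold change 3.09, SE 0.23, adjusted p = 2.22e-07). Gsta4, a glutathione transferase, measured 1.84 and 1.53 against 11.2 and 9.59 CPM (log2 fold change 2.62, SE 0.43, adjusted p = 0.000358), Epdr1 26.04 and 18.5 against 111 and 119 CPM (log2 fold change 2.37, SE 0.20, adjusted p = 9.31e-07), and Aunip, a partner of Aurora kinase A, 1.41 and 1.898 against 8.84 and 13.4 CPM (log2 fold change 2.74, SE 0.53, adjusted p = 0.00134). Downward, Dapl1 fell from 23.2 and 27.5 to 1.07 and 0.44 CPM (log2 fold change -5.06, SE 0.38, adjusted p = 2.73e-07; -5.84 without TIM-3+ replicate 1), Timd2, a relative of TIM-3 in the TIM family, from 20.3 and 17.2 to 0.87 and 0.19 CPM (log2 fold change -5.12, SE 0.50, adjusted p = 3.25e-06; -6.55 without TIM-3+ replicate 1 and -4.41 without TIM-3+ replicate 2), and Trap1a from 62.2 and 57.4 to 3.69 and 2.33 CPM (log2 fold change -4.31, SE 0.23, adjusted p = 8.39e-09). Gja1, the gap junction protein connexin 43, fell from 67.3 and 63.9 to 5.15 and 1.502 CPM (log2 fold change -4.300, SE 0.35, adjusted p = 6.87e-07; -5.44 without TIM-3+ replicate 1 and -3.67 without TIM-3+ replicate 2).

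Many transcripts of the T cell receptor complex and of the actin cytoskeleton were higher. Of 25 genes of the receptor complex and its proximal signals, 15 were higher and 2 lower (median log2 fold change 0.31). Under total counts 11 were higher and 6 lower (median 0.15), and on log2(TPM + 1) 10 were higher and 5 lower (median 0.13). The brakes Cblb and Ubash3b were among the 15, at 476 and 431 against 882 and 913 CPM and 459.7 and 428 against 887 and 962 CPM. Actin was the largest absolute gain, with Actb at 20424 and 21031 CPM in DN and 36305 and 38701 CPM in TIM-3+ libraries (log2 fold change 0.86, SE 0.03, adjusted p = 5.69e-11), and 17 of 24 actin cytoskeleton genes were higher and 1 lower. Tmsb4x rose (log2 fold change 0.58) and its paralog Tmsb10 fell (-0.44). Of 19 genes of the S100, annexin and galectin families, 10 were higher and 1 lower: Lgals3 measured 97.6 and 98.8 against 229 and 227 CPM (log2 fold change 1.22, SE 0.10, adjusted p = 6.2e-07), and Anxa1 61.6 and 52.2 against 21.2 and 18.8 CPM (log2 fold change -1.51, SE 0.18, adjusted p = 2.27e-05). Of 15 integrin and adhesion genes tested, 6 were higher, 2 lower and 7 not called, and under total counts 4 were higher and 4 lower. Over all genes tested, 14.8% were higher and 13% lower. Itgav was higher, at 266 and 263 against 528 and 523 CPM, and Itgb1 lower, at 822 and 945 against 221 and 251 CPM (log2 fold change -1.91, SE 0.08, adjusted p = 8.76e-10). Of 15 killer cell receptors tested, 5 were higher, 3 lower and 7 not called. Fcgr2b, the inhibitory receptor for IgG, fell from 101 and 108 to 4.76 and 8.58 CPM (log2 fold change -3.97, SE 0.21, adjusted p = 8.76e-09), while Klrc1, which encodes NKG2A, rose (log2 fold change 0.73, SE 0.07).

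Transcripts of translation and metabolism differed by list, and the counts below stand beside 14.8% higher and 13% lower over all genes tested. Ribosomal protein genes were lower in 30 of 36 (16 without DN replicate 1), by a median log2 fold change of -0.31; the largest loss was in Rps27a, from 455 and 415 to 198 and 185 CPM. Of 34 nuclear genes of oxidative phosphorylation, 2 were higher and 8 lower (3 lower without DN replicate 1, 3 without DN replicate 2 and 5 without TIM-3+ replicate 1), but 16 were lower under total counts and 20 on log2(TPM + 1), with none higher. Of 13 mitochondrially encoded genes 7 were lower (3 without DN replicate 1 and 4 without DN replicate 2), among them mt-Cytb (log2 fold change -0.63, SE 0.05). Of 27 glycolysis and hypoxia genes 11 were higher and 5 lower (median log2 fold change 0.11). Under total counts and on log2(TPM + 1) 9 were higher and 7 lower, with medians of -0.04 and -0.06. Slc16a3, a lactate exporter, rose from 67.3 and 68.5 to 142 and 149.6 CPM (log2 fold change 1.101, SE 0.13, adjusted p = 1.55e-05). Sterol and fatty acid synthesis had 6 of 22 genes lower, 4 of them at least 2-fold, and none higher. Called genes at least 2-fold lower made up 5.62% of all genes tested. Insig1, a sterol-regulated brake on sterol synthesis, fell from 89.01 and 81.4 to 39.6 and 37.6 CPM (log2 fold change -1.14, SE 0.13, adjusted p = 1.47e-05), and Sqle, which encodes squalene epoxidase, from 85.3 and 85.7 to 48.1 and 32.2 CPM (log2 fold change -1.09, SE 0.17, adjusted p = 0.000301). In the cell death family, Bcl2, which protects from apoptosis, fell (log2 fold change -0.97, SE 0.13), while 5 of 21 were higher and 5 lower. Fewer of them were called lower when any 1 library was left out. Under total counts 4 were higher and 9 lower, and on log2(TPM + 1) 3 were higher and 10 lower.

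Of 5 markers of CD4+ and regulatory T cells tested, 1 was higher and 2 were lower. Ikzf4, which encodes Eos, rose from 23.9 and 24.4 to 51.996 and 59.3 CPM (log2 fold change 1.203, SE 0.16, adjusted p = 6.81e-05), and Foxp3, which stayed under the mean of 1 FPKM and was not tested, had 6 and 9 counts in DN and 128 and 96 in TIM-3+ libraries. Cd4 was lower in TIM-3+ libraries, as given above, and Cd40lg, which encodes the CD40 ligand of helper T cells, measured 7.96 and 7.82 against 2.33 and 1.31 CPM (log2 fold change -2.11, SE 0.49, adjusted p = 0.0051; adjusted p = 0.0513 without DN replicate 1).

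The genes of this contrast were then read in the OT-I experiments, which share no library with it. In Prdm1-overexpressing OT-I cells, Prdm1 itself measured 109 and 89.4 CPM in control and 155 and 193 CPM in overexpressing libraries and did not pass the test (adjusted p = 0.0923). Of 9947 genes tested, 115 were higher (1.16%) and 20 lower (0.201%). Of 1378 genes higher in TIM-3+ TILs, 27 were higher (1.96%) and 4 lower, and of 1062 genes lower in TIM-3+ TILs, 9 were higher and 9 lower (0.847% each). The lower ones included Tcf7, at 122 and 143 against 26.02 and 24.4 CPM, Ccr7, at 503 and 529.6 against 249.98 and 276 CPM, and Slamf6. These counts rest on single libraries: 135 genes were called with all 4 libraries, 5 and 3 without the first or the second control library (0 of the genes above), 784 without the first overexpressing library and 586 by DESeq2. The even split of the TIM-3+-lower genes turned with the fit, to 32 higher and 73 lower by DESeq2 and 80 higher and 167 lower with a replicate block, which called 1659 genes in all.

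In Bcl6-overexpressing cells, in which Bcl6 measured 4.08 and 3.81 CPM in control and 93.4 and 67.1 CPM in overexpressing libraries, 2459 genes were higher (25.4%) and 2261 lower (23.4%) of 9669 tested. Of 1374 genes higher in TIM-3+ TILs, 581 were lower (42.3%) and 200 higher (14.6%) with Bcl6 overexpression. Of 1082 genes lower in TIM-3+ TILs, 426 were higher (39.4%) and 140 lower (12.9%). Havcr2 measured 907 and 893 CPM in control and 224 and 275 CPM in overexpressing libraries, Cxcr5 2.31 and 1.88 against 38.2 and 33.96 CPM, and Id3 4.82 and 3.43 against 58.3 and 52.2 CPM. Ccl3, however, was higher with Bcl6 overexpression, at 219 and 145 against 422 and 366 CPM. It was not alone in this: of 10 chemokines tested, 8 were higher and 0 lower (median log2 fold change 1.74). Of 19 granule protein genes tested, 5 were higher and 8 lower with Bcl6 overexpression. The Bcl6-overexpressing libraries stand apart in composition: 35 of 36 ribosomal protein genes were higher, by a median log2 fold change of 3.59, as were all 10 macrophage markers tested (2.82), all 5 neutrophil markers (5.75) and all 3 erythroid markers (9.43). Without the first control library the 140 genes became 77, and without the second 83. The part of these transcripts in the counts above was not tested.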

How the data were processed

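RNA of sorted CD8+ TILs and of OT-I cells was extracted with Trizol and sequenced by BGI Genomics, per the labels' protocols. The authors deposited a raw count and an FPKM value for each gene and library, per the file headers. The submitters' processing notes list mm10 and, for TIL libraries, DESeq2, edgeR, featureCounts, Subread and Bowtie2. Versions, the role of each tool and the use of strand: not given in the sources used here, so counts of overlapping genes and close paralogs may be shared. Every gene in the TIL table has 20 or more counts in all.

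Counts were tested with the edgeR 4.0.16 quasi-likelihood test in R 4.3.3 with TMM scaling, over genes whose mean reached 1 FPKM, two-sided, with Benjamini-Hochberg adjustment and a threshold of 0.05. One model held all 6 TIL libraries (3 residual degrees of freedom, biological coefficient of variation 0.147), and the OT-I experiments were fitted separately. The SE was derived as |log2 fold change| divided by the root of F. The script was tested on simulated data. Gene positions came from GENCODE M21 on mm10 and matched 9600 of 9614 genes. Totals of the DN and TIM-3+ libraries were 20529410 to 22304113 counts. Replicates differed by more than sampling noise, so the spread between them and not depth set the precision of abundant genes, and both libraries of each group were kept (chi-square per gene of 11.9 in DN and 15.1 in TIM-3+). Deposited FPKM were not scaled to total counts: the count per FPKM relative to DN replicate 1 was 0.930 and 0.933 in TIM-3+ libraries, whose totals were 1.08 and 1.09 times as large.

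The members and gene lists were chosen with earlier results of these data known. Genes named were the 5 markers, the 15 largest changes in each direction among called genes whose libraries did not overlap and whose higher group reached 5 FPKM (without predicted models and receptor segments), the 8 members of smallest p in each list with up to 4 called against its majority, any member of a list of 15 or fewer, the 10 genes of highest FPKM lost to near silence, and markers of other cell types. A few genes that this rule names are not reported here. Klk1, Krt17, Pld4 and the plasmacytoid list were chosen after their values were seen. Alternatives were DESeq2 1.42.0, limma 3.58.1 on log2(FPKM + 1), log2(FPKM + 0.1) and log2(TPM + 1), total-count and RLE scaling, other filters, a fit of 4 libraries, a replicate block and leaving out each library. Replicate numbers are not stated to pair samples, and the correlation of deviations between same-numbered DN and TIM-3+ libraries was 0.028.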

Additional observations from a re-analysis of the deposited data

How the results depend on the processing

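All 897 changes of at least 2-fold kept their direction under every alternative in which they were tested. Between 840 and 897 of them were still called under another tool, scaling, filter or set of libraries in the fit, except that 413 of the 413 left under a minimum of 5 FPKM were called and that 723 to 803 were called when 1 library was left out. Of 2187 values of the 148 named genes under the alternatives, none reversed, 13 no longer passed and 9 newly passed. Genes called higher made up 53.2% of calls, against 29.4% (873 higher, 2092 lower) under total counts and 27.2% (824 higher, 2201 lower, 236 at least 2-fold higher) on log2(TPM + 1), settings that moved the median of all genes by -0.16 and -0.17. A minimum of 5 FPKM left 215 genes at least 2-fold higher, 190 at least 2-fold lower and 6 lost to near silence, since fewer genes were tested. Leaving out 1 library, with the lone sample assumed to vary like the other groups, gave 1663 to 2085 changed genes, 877 to 1090 higher and 786 to 1008 lower. The replicate block gave 2613 changed genes (1392 higher, 1221 lower); the numbers are not stated to pair samples, the correlation of deviations was 0.028, and the block moved no count of the TIM-3+ contrast by over 1.5 times. Thresholds for near silence chosen after seeing the data gave 97 lost and 13 gained (under 1 and at least 3 FPKM), 19 lost (under 2 and at least 10 FPKM) and 17 lost (under 0.5 and at least 5 FPKM). A fit with the trend on gene length removed, also added after seeing the data, gave 2649 changed genes.

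Counts of TIM-3+ genes in the Prdm1 experiment moved with nearly every setting, and the cause was not tested. In the order all called, TIM-3+-higher genes called higher and lower, and TIM-3+-lower genes called higher and lower, DESeq2 gave 586, 74, 31, 32 and 73, the replicate block 1659, 214, 102, 80 and 167, and leaving out 1 library 3 to 784, 0 to 105, 0 to 88, 0 to 31 and 0 to 94. With no filter on low values the first 4 were 44, 7, 1 and 4. In the Bcl6 experiment, leaving out 1 library gave 77 to 178 TIM-3+-lower genes called lower. The correlation of deviations was 0.323 and -0.064 between same-numbered libraries of the Prdm1 and Bcl6 experiments.

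With 2 libraries a group, the depth of 20529410 to 22304113 counts in DN and TIM-3+ libraries sets little of the error at high levels. Genes near 0 in TIM-3+ cells have folds that rest on a few reads.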
